A study of Mus musculus with 23 samples.

Results

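The genes described here are 10 receptors and associated proteins of B cells: the inhibitory co-receptors Siglecg, Cd22, Cd72 and Btla, the Fc receptor relatives Fcrla and Fcmr, the adhesion receptors Cd2 and Slamf6, and the membrane proteins Cd37 and Ms4a1. They are 10 of the 19938 gene symbols that had a probe set of their own on the array, and all 10 were among the 15542 genes tested. They were chosen by their leukemic and preleukemic log2 levels, so their differences between those stages are a description with no test. Where a stage call is named for them, it says only whether the fitted difference met the threshold of the linear model. The genotype comparisons were not the contrast they were chosen on. Earlier results of these data were known at the choice, so the genotype tests are not fully independent of it. Fcrla is known as an intracellular protein, so the description "surface" does not apply to it, and Cd2, Slamf6 and Btla are also known from T cells, with Cd2 and Slamf6 known from NK cells as well.

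Inhibitory co-receptors lie beside the B cell antigen receptor and carry tyrosine motifs in their cytoplasmic tails. When a ligand is bound, the kinase Lyn phosphorylates these motifs, and the phosphatases SHP-1 (Ptpn6) and SHIP-1 (Inpp5d) are drawn in and lower the antigen receptor signal. Most of these receptors appear or increase as B cell precursors mature in the bone marrow, and the transcription factor Pax5 is known as an activator of many B lineage surface genes. In a bulk sample, fewer cells of a type and less RNA per cell cannot be told apart.

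RNA of mouse bone marrow samples was measured on 1-colour arrays, 1 array per sample, in mice that had all received a single dose of 2 Gy at 2 months of age, controls included. Pax5+/- mice carry 1 functional copy of Pax5, and wild-type (WT) mice carry both. The groups were 10 Pax5+/- leukemias (samples 1 to 10), 3 WT leukemias (samples 14, 15 and 17), 7 preleukemic Pax5+/- samples (11 to 13 and 21 to 24) and 3 preleukemic WT samples (18 to 20). Sample 16, a further WT leukemia, was not used here. Preleukemic samples held pro-B together with pre-B cells, collected 3 weeks after irradiation. Leukemias are called pro-B cells in 1 label and leukemic bone marrow in another, with no sort stated, and their time after the dose is not labelled. Leukemia, the kind of sample, the time after the dose and age therefore cannot be told apart. Sex, read as Xist above Eif2s3y, was female in 5 of 10 Pax5+/- leukemias, 3 of 7 Pax5+/- preleukemic samples, 3 of 3 WT leukemias and 0 of 3 WT preleukemic samples, so within WT mice sex and stage cannot be told apart.

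The median log2 signal of an array ran from 6.06 to 6.2 and serves here as a reference for low signal, since detection calls were not used here. Of 13 genes that define the early B lineage, 12 were measured, and their mean lay between 10.954 and 11.365 in the 10 preleukemic samples, between 9.253 and 10.675 in the Pax5+/- leukemias and between 8.267 and 10.162 in the WT leukemias. Marker lists of other marrow cells differed in both directions. In Pax5+/- samples 11 of 14 neutrophil, 10 of 13 monocyte and macrophage, 6 of 6 megakaryocyte and 9 of 10 stroma and endothelium markers passed the test as higher in leukemia (limma, Benjamini-Hochberg adjusted p under 0.05). So did 5 of 11 T cell and 4 of 7 plasmacytoid dendritic cell markers, and 4357 of all 15542 genes tested. In WT mice the counts of these 6 lists, in the same order, were 1, 7, 5, 8, 2 and 0, where 2783 of all genes were higher. The mean of the monocyte list was 7.383 to 9.565 in Pax5+/- leukemias against 6.428 to 6.639 before leukemia. The erythroid list had a lower median in Pax5+/- leukemias than before (7.165 against 7.54), as had the mature B cell list (7.324 against 7.969). In WT mice the mature B cell list (6.981 against 8.149) and the NK cell list (5.733 against 6.789) had lower medians in leukemia, and the erythroid list a higher one (9.402 against 7.466). The plasma cell list mean was 7.964 to 8.689 in Pax5+/- leukemias against 7.706 to 7.827 before. In WT mice it was 8.233 to 8.584 against 7.479 to 7.657. Of its 7 markers 2 passed as higher and 2 as lower in Pax5+/- leukemia, and 3 and 1 in WT leukemia. WT preleukemic sample 20 stood apart from the other 2 of its group, with a neutrophil list mean of 10.613 where the lowest was 6.546, and WT leukemia 15 had the highest NK cell list mean, 8.603. The part of these cells in the differences below was not tested. Stage and genotype differences whose fold changed by a factor of about 1.5 or more without sample 15 or 20 are given both ways.

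Promoter sequence was read from RefSeq (GRCm38.p6) for 8 of the 10 genes, as the 250 bases before each start. Cd2 and Ms4a1 were not matched. The promoters of Fcrla, Siglecg, Cd72 and Cd22 are printed because these genes span the range from the most negative stage difference to the smallest, and Btla because its matches lie closest to the start. They are written 5′ to 3′ on the strand of the gene, at chr1:170927584-170927833 (minus strand) for Fcrla, chr7:43407989-43408238 (plus) for the first of 2 Siglecg starts, chr4:43454627-43454876 (minus) for Cd72, chr7:30879029-30879278 (minus) for Cd22 and chr16:45224087-45224336 (plus) for Btla. Capitals mark matches to the EBF1 palindrome (TCCC and GGGA with any 2 bases between them), the PU.1 site GAGGAAG or the Ikaros core TGGGAA, each searched on both strands.
Fcrla: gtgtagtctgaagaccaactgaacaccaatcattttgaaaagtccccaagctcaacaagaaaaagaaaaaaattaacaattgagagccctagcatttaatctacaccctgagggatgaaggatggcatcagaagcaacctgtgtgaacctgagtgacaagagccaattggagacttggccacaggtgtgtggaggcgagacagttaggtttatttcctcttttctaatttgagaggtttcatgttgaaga
Siglecg: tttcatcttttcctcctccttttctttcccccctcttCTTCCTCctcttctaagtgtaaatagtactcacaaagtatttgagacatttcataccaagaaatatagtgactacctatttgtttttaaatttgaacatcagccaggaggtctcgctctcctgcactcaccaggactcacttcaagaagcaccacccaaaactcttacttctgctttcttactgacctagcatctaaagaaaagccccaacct
Cd72: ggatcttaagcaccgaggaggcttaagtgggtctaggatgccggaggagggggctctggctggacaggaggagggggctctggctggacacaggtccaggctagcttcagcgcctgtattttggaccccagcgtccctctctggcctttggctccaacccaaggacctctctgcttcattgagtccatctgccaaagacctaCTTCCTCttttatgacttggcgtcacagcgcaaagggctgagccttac
Cd22: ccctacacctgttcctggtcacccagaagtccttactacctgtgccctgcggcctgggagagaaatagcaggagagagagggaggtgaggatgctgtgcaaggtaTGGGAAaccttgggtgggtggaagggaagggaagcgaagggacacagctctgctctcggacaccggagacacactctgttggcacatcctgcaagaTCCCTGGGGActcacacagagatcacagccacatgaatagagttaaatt
Btla: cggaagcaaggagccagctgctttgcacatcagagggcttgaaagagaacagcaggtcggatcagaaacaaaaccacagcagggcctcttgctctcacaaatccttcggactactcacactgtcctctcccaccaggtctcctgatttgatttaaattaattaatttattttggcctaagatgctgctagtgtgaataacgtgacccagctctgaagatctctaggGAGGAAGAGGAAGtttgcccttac

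Among these 5 genes, Cd22 alone held the EBF1 palindrome, with its first base 49 bases before the start. That motif was present in 0.779% of 32851 promoters of the same length. Cd22 also held TGGGAA, 145 bases before the start, a motif present in 21.6% of promoters. The PU.1 site was found in Siglecg (213 bases before the start), Cd72 (48) and Cd37 (24), and at 24 and 18 bases before the start of Btla, where the matches overlap by 1 base. It was present in 4 of 9 member promoters and in 10.6% of all promoters. No capitals stand in the Fcrla promoter, which held 4 E-boxes (CANNTG, present in 66.2% of promoters). The octamer ATTTGCAT (1.6% of promoters) and TATAAA (12.4%) were found in none of the 9 member promoters. A match is a description of the letters in this window only.

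In Pax5+/- mice 9 of the 10 genes were lower in leukemia than before it by the linear model, where 36.5% of all 15542 genes tested were lower. In WT mice 8 of 10 were lower, where 19.3% of all genes were lower. These counts follow from how the genes were chosen, and nothing is read from them. Fcrla had the most negative difference of all genes tested in both genotypes, while Cd22 and Cd37 were lower by at most 0.49 on the log2 scale. The median difference over the 10 genes was -3.17 in Pax5+/- and -3.04 in WT mice, against -0.05 and -0.06 over all genes tested. In 7 of the 10 genes every Pax5+/- leukemia lay below every Pax5+/- preleukemic sample, a state held by 10.8% of all genes, and in WT mice the number was also 7, against 23.3% of all genes.

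**Figure D1:**
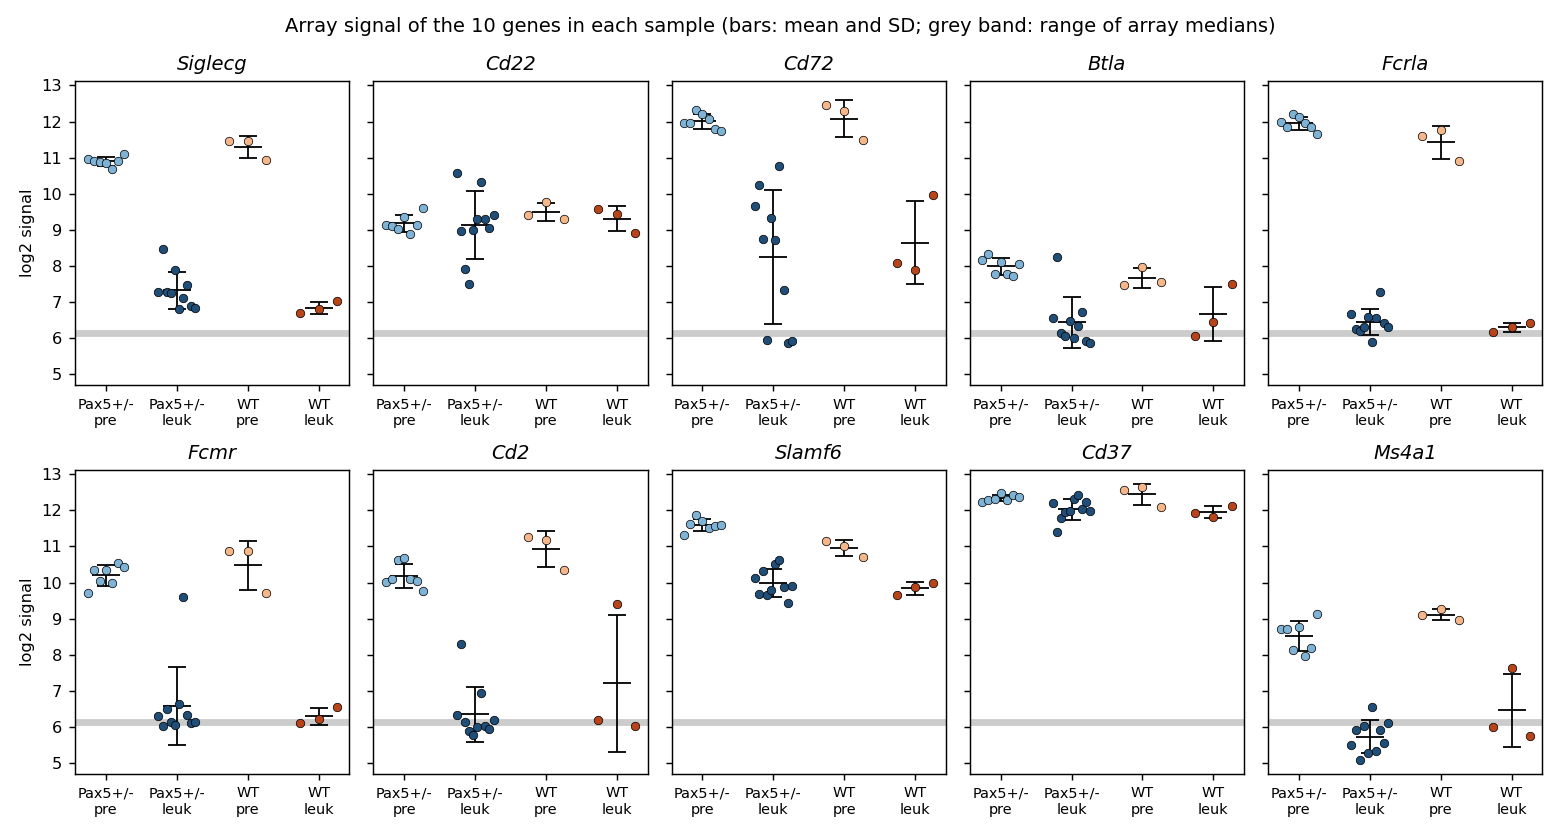
Log2 array signal of each of the 10 genes (vertical axis) in every sample, by group on the horizontal axis, with bars for the group mean and SD and a grey band for the range of array medians, 6.06 to 6.2. Fcrla and Siglecg separate the stages without overlap, whereas Cd22 has its leukemias spread on both sides of the preleukemic samples.

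Among the inhibitory co-receptors, Siglecg was lower in every leukemia. Siglecg, a sialic acid binding receptor that restrains calcium signalling in B cells, had a log2 signal of 10.69 at the lowest, 10.9 at the median and 11.09 at the highest in the 7 Pax5+/- preleukemic samples. The 10 Pax5+/- leukemias ran from 6.82 through a median of 7.265 to 8.46. WT preleukemic samples 18, 19 and 20 read 11.46, 11.47 and 10.95, and WT leukemias 14, 15 and 17 read 6.69, 6.81 and 7.02. No leukemia reached a preleukemic level, and in Pax5+/- mice a gap of 2.23 lay between the highest leukemia, sample 2, and the lowest preleukemic sample. The fitted difference was -3.57 (SE 0.176), or 11.8-fold lower, in Pax5+/- mice and -4.45 (SE 0.291), or 21.9-fold lower, in WT mice.

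Cd72, a C-type lectin that binds Sema4d, was lower in leukemia with a wide spread between leukemias. Before leukemia the Pax5+/- samples lay between 11.74 and 12.32 with a median of 11.95. In Pax5+/- leukemias 1 to 10 Cd72 read 9.66, 10.24, 8.75, 5.95, 9.32, 8.71, 10.78, 7.34, 5.87 and 5.92. Leukemias 4, 9 and 10 thus lay below the median of their own arrays, whereas leukemias 2 and 7 kept a signal above 10. The SD among Pax5+/- leukemias was 1.86 (n = 10), against 0.21 (n = 7) before leukemia. WT leukemias 14, 15 and 17 read 8.08, 7.89 and 9.98, against 12.45, 12.28 and 11.5 in WT preleukemic samples 18, 19 and 20. The fitted difference was -3.75 (SE 0.625), or 13.4-fold lower, in Pax5+/- mice. In WT mice it was -3.43 (SE 1.04), or 10.8-fold lower, and the call was lost when sample 14, 15 or 18 was left out. Without WT leukemia 17, Cd72 was 17.1-fold lower.

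Cd22, the sialic acid binding receptor that recruits SHP-1 to the antigen receptor, did not separate the stages. Its level was 9.18 ± 0.23 (SD, n = 7) in Pax5+/- preleukemic samples and 9.13 ± 0.93 (SD, n = 10) in Pax5+/- leukemias. The lowest Pax5+/- leukemia, sample 4, read 7.51, the median was 9.17 and the highest, sample 1, read 10.58. Of the 10, 6 lay inside the preleukemic range of 8.89 to 9.61, with 2 below and 2 above it. WT preleukemic samples read 9.41, 9.77 and 9.31, and WT leukemias 9.58, 9.44 and 8.92, so these groups overlapped too. The fitted Cd22 difference was -0.05 (SE 0.311) in Pax5+/- and -0.18 (SE 0.516) in WT mice, and its sign turned in Pax5+/- mice when sample 3, 4 or 24 was left out (0.09, 0.13 and 0.02).

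Btla, which binds the TNF receptor family member Tnfrsf14, was a low signal throughout. It lay between 7.73 and 8.34 (median 8.05) in Pax5+/- preleukemic samples and between 5.88 and 8.24 (median 6.245) in Pax5+/- leukemias, 4 of which were below their array median. Leukemia 2, at 8.24, lay inside the preleukemic range, and the other 9 lay below it. WT leukemias 14, 15 and 17 read 6.06, 6.44 and 7.5 against 7.47, 7.98 and 7.55 before leukemia, so that leukemia 17 fell inside the range. The fitted difference was -1.55 (SE 0.26), or 2.93-fold lower, in Pax5+/- mice. In WT mice it was -1 (SE 0.431), which did not meet the threshold. Without Pax5+/- leukemia 2 the threshold was met although the WT difference stayed at -1. Without WT leukemia 17 it was met with a difference of -1.42.

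The Fc receptor relatives were lower in all 13 leukemias. Fcrla, a protein of the B cell endoplasmic reticulum that binds immunoglobulin inside the cell, ran from 11.66 through a median of 11.95 to 12.21 in Pax5+/- preleukemic samples. The Pax5+/- leukemias ran from 5.9 through 6.375 to 7.28, 1 of them below its array median. WT preleukemic samples 18, 19 and 20 read 11.6, 11.77 and 10.9, and WT leukemias 14, 15 and 17 read 6.17, 6.3 and 6.43. Signal was thus near the middle of the array in every leukemia and high in every preleukemic sample, with a gap of 4.38 between the stages in Pax5+/- mice and 4.47 in WT mice. Fcrla was 45.1-fold lower in Pax5+/- leukemia (log2 -5.50, SE 0.148) and 34.9-fold lower in WT leukemia (log2 -5.12, SE 0.246), and it ranked first of 15542 genes from the lowest difference in each. Leaving out any single sample kept the Pax5+/- value between 43.2-fold and 48.1-fold.

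Fcmr, the receptor for the Fc part of IgM, lay between 9.72 and 10.55 (median 10.34) in Pax5+/- preleukemic samples. In the Pax5+/- leukemias the lowest value was 6.03 and the median 6.22. Leukemia 7 stood apart at 9.59, which is 2.95 above the next leukemia and 0.13 below the lowest preleukemic sample. WT leukemias read 6.11, 6.23 and 6.55, against 10.88, 10.87 and 9.7 in WT preleukemic samples 18, 19 and 20. The Fcmr difference was -3.62 (SE 0.368), or 12.3-fold lower, in Pax5+/- mice and -4.19 (SE 0.61), or 18.2-fold lower, in WT mice. Without leukemia 7 the Pax5+/- difference was 15.5-fold.

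Of the adhesion receptors, Cd2 was the lower by the larger step. Cd2, which binds Cd48 in mice and is known in B cells from the pre-B stage onward, lay between 9.76 and 10.67 (median 10.09) in Pax5+/- preleukemic samples. In Pax5+/- leukemias it lay between 5.77 and 8.3 (median 6.085), with 5 of 10 below the array median. Leukemia 2 was the highest, at 8.3, and still below every preleukemic sample. WT preleukemic samples read 11.26, 11.17 and 10.34, and WT leukemias 14, 15 and 17 read 6.19, 9.4 and 6.03. Leukemia 15 therefore carried most of the WT spread. Cd2 was 14.3-fold lower in Pax5+/- (log2 -3.83, SE 0.392) and 13.1-fold lower in WT leukemia (log2 -3.72, SE 0.65). In WT mice the value was 28.1-fold without leukemia 15 and 8.74-fold without leukemia 17.

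T and NK cell markers were read in the leukemias with the highest Cd2 and Btla. In leukemia 2 the mean of 11 T cell markers was 7.639 with 8 of 11 above the array median, and Cd3e, Cd3g and Cd4 read 8.33, 9.65 and 9.21. Cd3d, Cd8a and Cd8b1 read 5.83, 5.93 and 5.76, below the median of that array, 6.16. Its mature B cell list mean was 8.359, against 7.774 to 8.243 in Pax5+/- preleukemic samples. Across Pax5+/- preleukemic samples the T cell list mean was 5.964 to 6.103, with 4 to 6 markers above the array median, and across Pax5+/- leukemias it was 6.265 to 7.639. Leukemia 5 had a similar T cell mean, 7.542, with Cd3g at 9.24, while its Cd2 was 5.77, the lowest of the group, and its Btla was 6.48. WT leukemia 15 had Cd3g at 10.39, a T cell list mean of 7.399 against 6.679 and 6.839 in the other 2, and 8 of 9 NK cell markers above the array median. Its other T cell markers were not all higher, with Cd4 at 6.75 against 7.04 and 8.45, and Cd8a at 5.72 against 5.65 and 5.7. Btla was 6.44 in that leukemia and highest among WT leukemias in sample 17, at 7.5, where the T cell list mean was 6.839 and 2 of 9 NK cell markers were above the array median. The part of T, NK and mature B cells in the Cd2 and Btla values of these samples was not tested.

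Slamf6, a homophilic receptor of the SLAM family that signals through the adaptors SAP and EAT-2, was lower in leukemia but remained well above the array median in all samples. It lay between 11.32 and 11.88 (median 11.6) in Pax5+/- preleukemic samples and between 9.42 and 10.63 (median 9.89) in Pax5+/- leukemias. WT preleukemic samples read 11.14, 11.01 and 10.72, and WT leukemias 9.65, 9.87 and 9.99. The stages did not overlap in either genotype. Slamf6 was 3.05-fold lower in Pax5+/- leukemia (log2 -1.61, SE 0.142) and 2.17-fold lower in WT leukemia (log2 -1.12, SE 0.235).

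The tetraspanin Cd37, which organises receptors and integrins in the B cell membrane, had a high signal in all samples. Pax5+/- preleukemic samples lay between 12.22 and 12.47 (median 12.32) and Pax5+/- leukemias between 11.4 and 12.43 (median 12.015), with 3 of 10 inside the preleukemic range. WT preleukemic samples read 12.57, 12.65 and 12.09, and WT leukemias 11.93, 11.8 and 12.12, so that leukemia 17 lay above preleukemic sample 20. The Cd37 difference was -0.30 (SE 0.111), or 1.23-fold lower, in Pax5+/- mice. In WT mice it was -0.49 (SE 0.183), or 1.40-fold lower, and the call was lost without sample 14, 15, 18 or 19.

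Ms4a1 encodes CD20, a membrane protein that becomes abundant late in B cell maturation. It lay between 7.97 and 9.14 (median 8.7) in Pax5+/- preleukemic samples and between 5.09 and 6.56 (median 5.74) in Pax5+/- leukemias, 9 of which were below their array median. WT preleukemic samples read 9.11, 9.26 and 8.96, and WT leukemias 14, 15 and 17 read 6, 7.63 and 5.75, so WT leukemia 15 was again the highest. Ms4a1 was 6.88-fold lower in Pax5+/- leukemia (log2 -2.78, SE 0.24) and 6.28-fold lower in WT leukemia (log2 -2.65, SE 0.397). Without WT leukemia 15 the WT value was 9.42-fold.

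**Figure D2:**
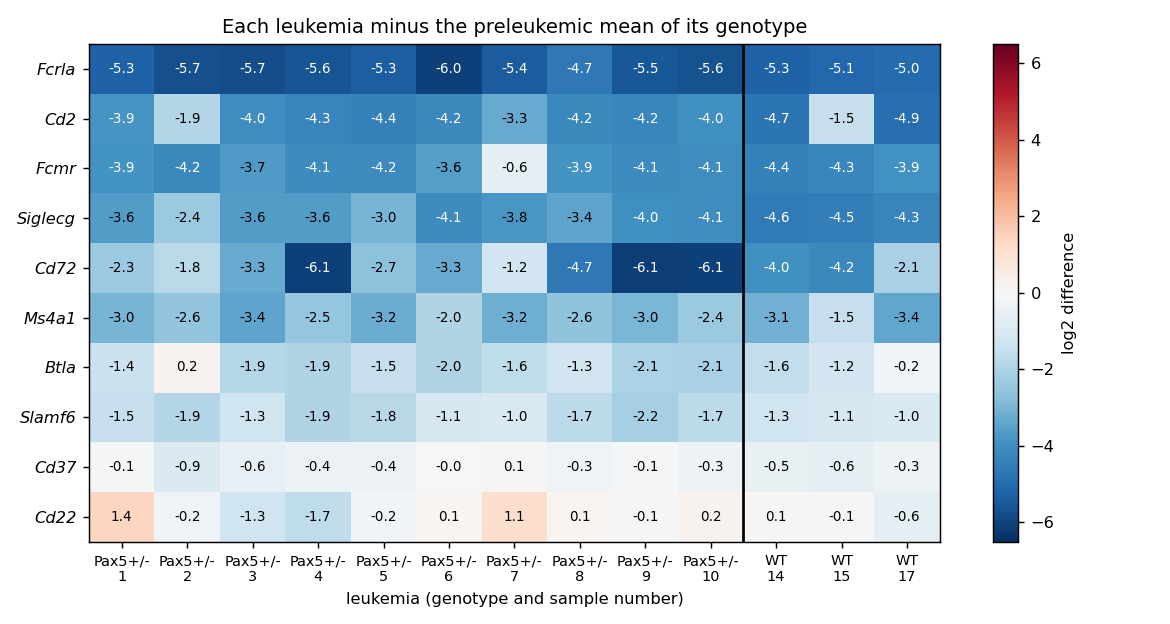
Log2 level of each gene in each of the 13 leukemias minus the preleukemic mean of the same genotype, with leukemias named by genotype and sample number. Fcrla is lower by 4.67 to 6.05 in the 10 Pax5+/- leukemias, and Cd72 by 1.22 to 6.13.

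The highest values of the 10 genes fell in 5 different Pax5+/- leukemias. Leukemia 7 had the highest Cd72, Fcmr, Slamf6 and Cd37 of the 10 Pax5+/- leukemias, and leukemia 2 had the highest Siglecg, Btla and Cd2. Cd22 was highest in leukemia 1, Ms4a1 in leukemia 6 and Fcrla in leukemia 8. After each group mean was subtracted, the correlation between 2 of the genes over the 23 arrays ranged from -0.478 to 0.815 over 45 pairs, with a median of 0.146. These arrays share their group, and the correlations are a description.

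Pax5 itself was lower in Pax5+/- leukemia by 2.86 on the log2 scale (SE 0.551, limma adjusted p = 0.000143), with a wide spread between leukemias. In leukemia 7 Pax5 read 11.42, above the mean of 11.39 ± 0.08 (SD, n = 7) in Pax5+/- preleukemic samples. The same array read 10.78 for Cd72 and 9.59 for Fcmr, but 7.12 for Siglecg, 6.55 for Fcrla, 6.93 for Cd2 and 5.35 for Ms4a1. WT leukemias 14 and 17, with Pax5 at 10.68 and 10.78, read 6.17 and 6.43 for Fcrla. WT leukemia 15, with the lowest Pax5 of its group at 6.32, read 6.3 for Fcrla. Leukemias 7, 14 and 17 were singled out after their values were seen. The part of Pax5 in the levels of the 10 genes was not tested. Over the 23 arrays with group means subtracted, Pax5 had r = 0.111 with the mean of the 10 genes, and the antigen receptor chain Cd79a had r = 0.154, while the inhibitory receptor Fcgr2b had r = 0.69 and Fcrl6 r = 0.542.

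**Figure D3:**
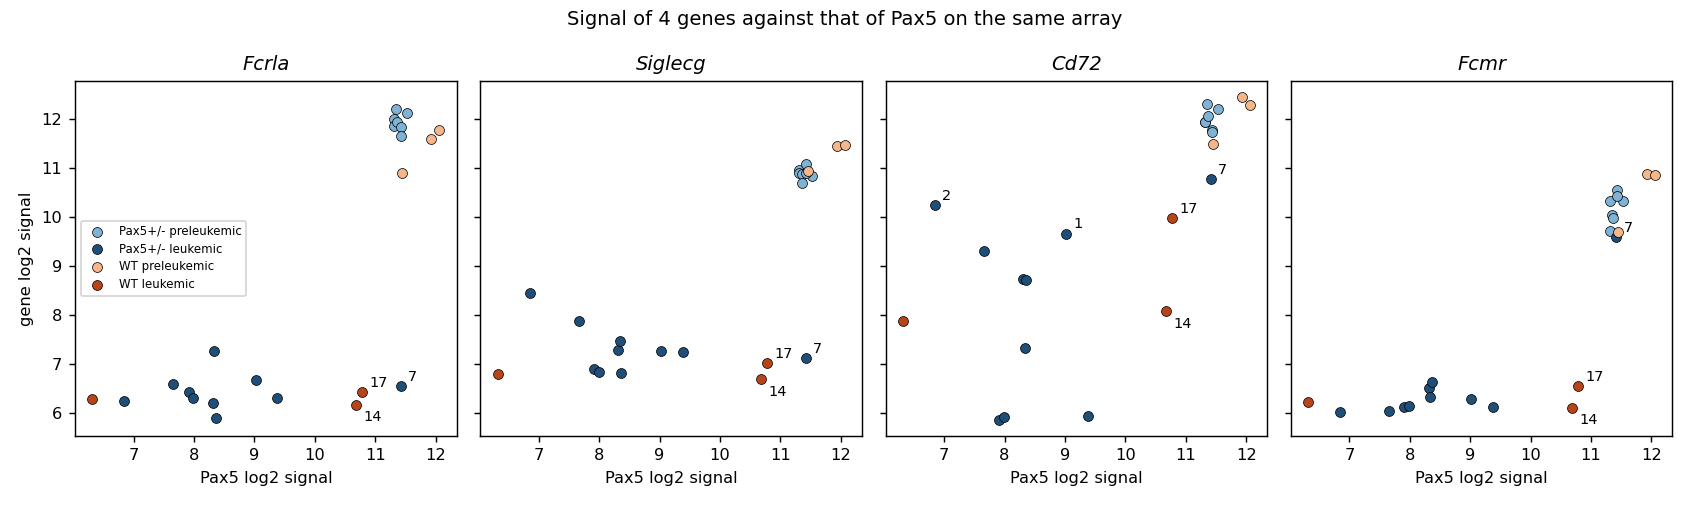
Log2 signal of Fcrla, Siglecg, Cd72 and Fcmr (vertical axes) against Pax5 log2 signal on the same array (horizontal axes), coloured by group, with leukemias of high signal numbered. Leukemias 7, 14 and 17 have Pax5 at 11.42, 10.68 and 10.78 while Fcrla stays between 6.17 and 6.55. WT leukemia 15 has Pax5 at 6.32 and Fcrla at 6.3.

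By the same measure, the 5 genes most like the mean of the 10 among 14682 compared were Gpr155 (r = 0.82), Ghdc (r = 0.771), Tgfbr2 (r = 0.77), Tpst1 (r = 0.765) and Gas7 (r = 0.759). Without samples 7 and 4, which lay farthest from the others, r was 0.763, 0.734, 0.663, 0.587 and 0.726. Gpr155, a membrane protein, averaged 10.5 in Pax5+/- preleukemic samples and 7.25 in Pax5+/- leukemias. Gas7 averaged 10.34 and 7.96, and Tgfbr2, a receptor for TGF-beta, 9.73 and 8.89.

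The comparison of genotypes before leukemia asked whether loss of 1 Pax5 copy went with other levels of the receptors. Sex was not balanced, with 3 of 7 Pax5+/- and 0 of 3 WT preleukemic samples female. None of the 10 genes passed (limma, Benjamini-Hochberg), where 0.624% of all genes passed in either direction. At an unadjusted p under 0.05 there were 2 of the 10 genes, against 8.97% of all genes. The 2 were Slamf6 and Fcrla, both higher in Pax5+/- samples.

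Slamf6 was 0.64 higher on the log2 scale in Pax5+/- preleukemic samples (SE 0.199, limma adjusted p = 0.204), at 11.60 ± 0.17 (SD, n = 7) against 10.96 ± 0.22 (SD, n = 3). All 7 Pax5+/- samples lay above all 3 WT samples, which holds for 2.09% of all genes in this direction, and the exact two-sided permutation p was 0.0167, the smallest these sample numbers can give. The adjusted p lay between 0.0178 and 0.444 over the alternatives run, and it passed when only the groups compared were fitted (0.0178) or without leukemias 2, 6 and 7 (0.0445). Fcrla was 0.53 higher (SE 0.208, limma adjusted p = 0.411, exact permutation p = 0.0333), with 6 of 7 samples above the WT samples. Both differences were smaller without WT preleukemic sample 20, at 0.52 for Slamf6 and 0.27 for Fcrla (limma adjusted p = 0.407 and 0.787).

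Cd2 (-0.74, SE 0.549), Ms4a1 (-0.59, SE 0.336) and Siglecg (-0.40, SE 0.246) were lower in Pax5+/- preleukemic samples without passing (limma adjusted p = 0.791, 0.659 and 0.707). Each had an exact permutation p of 0.05, with 5, 6 and 5 of the 7 Pax5+/- samples below all 3 WT samples. WT preleukemic sample 20 had the lowest value of its group in 9 of the 10 genes, and its T cell, NK cell and neutrophil list means were the highest of the group, at 6.818, 7.887 and 10.613. Without it the differences were -1.03 for Cd2, -0.67 for Ms4a1 and -0.57 for Siglecg. The part of these other cells in the levels of sample 20 was not tested. For Btla (0.32), Cd22 (-0.32), Fcmr (-0.28), Cd37 (-0.10) and Cd72 (-0.07) the limma adjusted p ran from 0.911 to 0.999.

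The genotypes were next compared in leukemia, where 5 of 10 Pax5+/- and 3 of 3 WT samples were female. None of the 10 genes passed (limma, Benjamini-Hochberg), where 0.341% of all genes passed in either direction. At an unadjusted p under 0.05 there were 2 of the 10, against 5.89% of all genes, namely Siglecg and Ms4a1. Siglecg was 0.49 higher in Pax5+/- leukemia (SE 0.235, limma adjusted p = 0.841, exact permutation p = 0.0559), with 7 of 10 Pax5+/- leukemias above all 3 WT leukemias. Ms4a1 was lower by 0.73 (SE 0.32, limma adjusted p = 0.749, exact permutation p = 0.161). Without WT leukemia 15 the Ms4a1 difference was -0.14, and without WT leukemia 17 it was -1.08. The Cd2 difference was -0.85 (SE 0.524, limma adjusted p = 0.955), and it became 0.24 without WT leukemia 15.

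The interaction term asked whether the stage difference itself differed between genotypes. None of the 10 genes passed (limma, Benjamini-Hochberg), where 0.0965% of all genes passed, and 1 of 10 had an unadjusted p under 0.05, against 7.19% of all genes. That gene was Siglecg, whose stage difference was smaller in Pax5+/- mice by 0.89 (SE 0.34, limma adjusted p = 0.575). The other 9 interaction terms ran from -0.55 for Btla (SE 0.504, limma adjusted p = 0.903) to 0.57 for Fcmr (SE 0.712, limma adjusted p = 0.951).

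**Figure D4:**
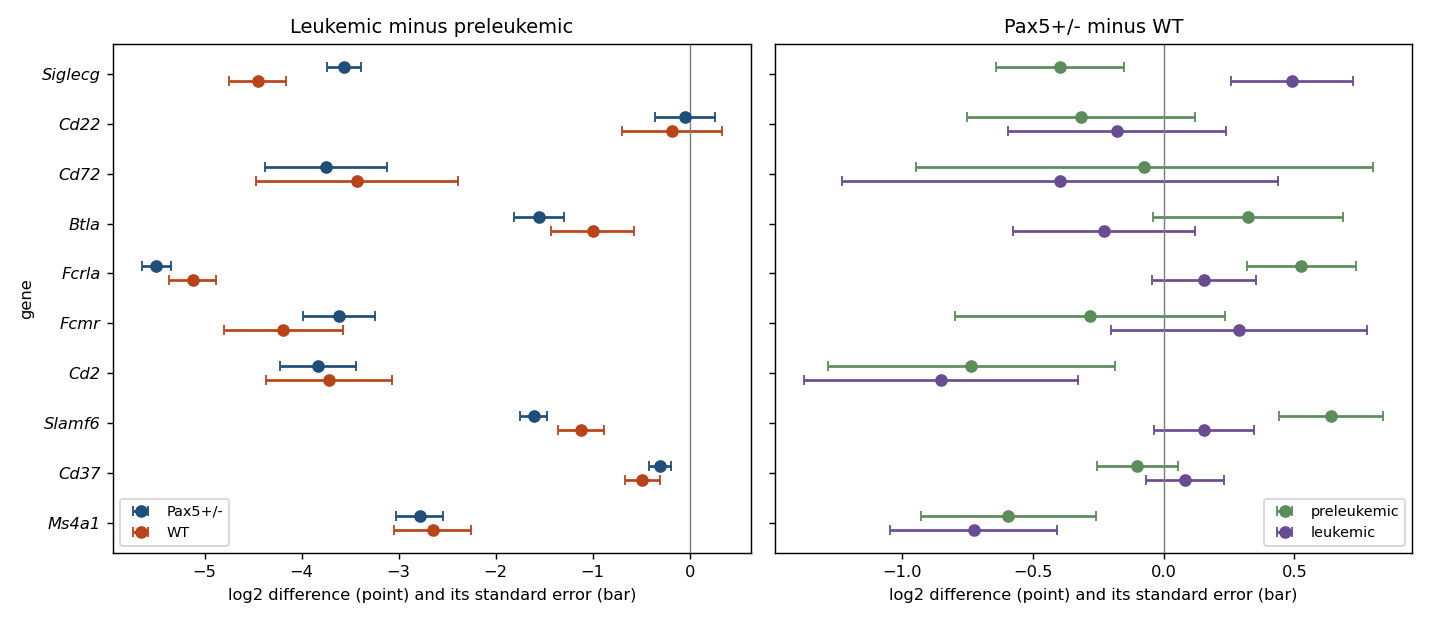
Fitted log2 difference (point) and its standard error (bar) for each gene, in one panel for leukemic minus preleukemic in each genotype and in the other for Pax5+/- minus WT at each stage. The stage differences reach -5.50 for Fcrla, while the genotype differences lie between -0.85 and 0.64.

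The wider families of these receptors, taken from lists drawn up for this work, moved in both directions. Over all 15542 genes tested, 5677 were lower and 4357 higher in Pax5+/- leukemia, and 2997 were lower and 2783 higher in WT leukemia, and the counts below stand beside these shares with no test. Among 14 other inhibitory and Fc receptors tested in Pax5+/- mice, 6 were lower and 5 higher in leukemia, with a median of 0.02. In WT mice 6 were lower and 1 higher, with a median of -0.28. Fcrl6, an Fc receptor-like gene, had a mean log2 level of 9.73 ± 0.65 (SD, n = 7) in Pax5+/- preleukemic samples and 6.16 ± 1.02 (SD, n = 10) in leukemias, and fell by 3.58 (SE 0.386, limma adjusted p = 1.01e-07). Fcgr2b, the inhibitory receptor for IgG, was 2.83-fold lower ( limma adjusted p = 1.26e-07), and Fcrl1, an activating relative, fell by 0.85 (limma adjusted p = 0.000184). Ceacam1 fell by 1.04 and Fcrlb by 0.40 (limma adjusted p = 1.09e-05 and 1.07e-06). Fcrlb was a low signal, with means of 6.45 before leukemia and 6.05 in it, near the array medians of 6.06 to 6.2. On the other side, Lilrb4a averaged 5.02 in Pax5+/- preleukemic samples and 7.26 in leukemias, and Pdcd1 averaged 5.85 and 7.69. For Cd5, an inhibitory receptor of T cells and B-1 cells, the difference was 0.20 (limma adjusted p = 0.302).

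Of 13 antigen receptor chains and activating co-receptors tested, 4 were lower and 4 higher in Pax5+/- leukemia, and 3 were lower and 2 higher in WT leukemia. Cd79a and Cd79b, the signalling chains of the antigen receptor, fell by 1.43 and 0.84 in Pax5+/- mice (limma adjusted p = 1.14e-06 and 6.22e-07), and Cd40 fell by 1.56 (limma adjusted p = 1.13e-05). Cd81, a tetraspanin of the B cell surface, rose by 1.01 (limma adjusted p = 5.76e-11), Icosl by 1.28 and Ifitm1 by 3.60 (limma adjusted p = 0.000141 and 3.02e-05). Ighd and Lyn were not analysed here, because no probe set carried their symbol alone, and Cr2 was removed by the filter on low values.

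Of 9 genes on the SLAM and CD2 family list, which includes an adaptor gene, 2 were lower and 4 higher in Pax5+/- leukemia, with a median of 0.27, and 1 was lower and 4 higher in WT leukemia. Slamf7 averaged 11.09 ± 0.19 (SD, n = 7) in Pax5+/- preleukemic samples and 8.90 ± 0.63 (SD, n = 10) in leukemias, and fell by 2.19 (limma adjusted p = 3.39e-08), in the same direction as Slamf6. Slamf1 rose by 1.77 and Cd244a, a receptor for Cd48, by 1.33 (limma adjusted p = 3.16e-05 and 5.8e-06). Sh2d1b1, which encodes the adaptor EAT-2, rose from 4.82 ± 0.14 (SD, n = 7) to 8.69 ± 0.99 (SD, n = 10), a difference of 3.87 (SE 0.341, limma adjusted p = 5.47e-09). Slamf6 and the EAT-2 gene thus differed in opposite directions, and in WT mice Sh2d1b1 rose by 3.34. Sh2d1b1 lay below the array median in all 7 Pax5+/- and all 3 WT preleukemic samples. The part of other marrow cells in its rise was not tested.

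The MS4A genes and tetraspanins are the relatives of Ms4a1 and Cd37. Among 11 MS4A genes 6 were higher and 2 lower in Pax5+/- leukemia, with a median of 0.76. In WT leukemia 2 were higher and 2 lower, with a median of 0.75. Ms4a6b, a relative of Ms4a1, rose by 2.03 (limma adjusted p = 5.69e-05), and Ms4a4a fell by 0.65 and Ms4a15 by 0.34 (limma adjusted p = 1.3e-05 and 1.22e-06). Both falls were at low signal. Ms4a4a averaged 5.74 before leukemia and 5.09 in it, below the array medians of 6.06 to 6.2. Ms4a15 averaged 6.47 and 6.13, near them. Of 13 other tetraspanins 8 were higher and 1 lower in each genotype, with medians of 0.81 and 0.84. Tspan4 rose by 2.43, Tspan31 by 2.11 and Cd151 by 0.81 (limma adjusted p = 7.79e-12, 6.81e-11 and 2.03e-06), while Cd53 differed by -0.09 (limma adjusted p = 0.275).

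Among 7 genes that encode or make the ligands, 1 rose and 2 fell in Pax5+/- leukemia, and 1 rose and 1 fell in WT leukemia. Sema4d, the ligand of Cd72, rose from 8.21 ± 0.26 (SD, n = 7) to 10.32 ± 0.30 (SD, n = 10), a difference of 2.11 (SE 0.166, limma adjusted p = 1.06e-09), and in WT mice it rose by 0.99 (limma adjusted p = 0.00822). Ighm, the heavy chain of the IgM that Fcmr binds, fell by 2.42 (SE 0.346, limma adjusted p = 4.62e-06). Cd24a, a glycoprotein bound by Siglecg, fell by 0.64 (limma adjusted p = 3.02e-05) in Pax5+/- mice. Cd48 (0.14), Tnfrsf14 (-0.10) and St6gal1 (-0.20), the enzyme that makes the sialic acid linkage bound by Cd22, did not pass (limma adjusted p = 0.387, 0.357 and 0.379).

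The effectors of inhibitory signalling differed in both directions, with 6 of 10 higher and 2 lower in Pax5+/- leukemia and 2 higher and 2 lower in WT leukemia. Ptpn6 (SHP-1) rose by 0.58 and Inpp5d (SHIP-1) by 0.30 in Pax5+/- mice (limma adjusted p = 0.00013 and 0.0175). In WT mice Ptpn6 differed by 0.34 and Inpp5d by -0.06, and neither passed (limma adjusted p = 0.149 and 0.816). Pag1, a membrane anchor for the kinase Csk, rose by 1.27 and Csk fell by 0.65 (limma adjusted p = 6.1e-08 and 9.52e-07). Dok3 had the most negative difference on this list in both genotypes. Its level was 11.80 ± 0.09 (SD, n = 7) in Pax5+/- preleukemic samples and 9.83 ± 0.70 (SD, n = 10) in Pax5+/- leukemias. In WT mice Dok3 fell by 2.09 (limma adjusted p = 0.00105). Before leukemia no gene of these 7 lists passed between the genotypes.

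**Figure D5:**
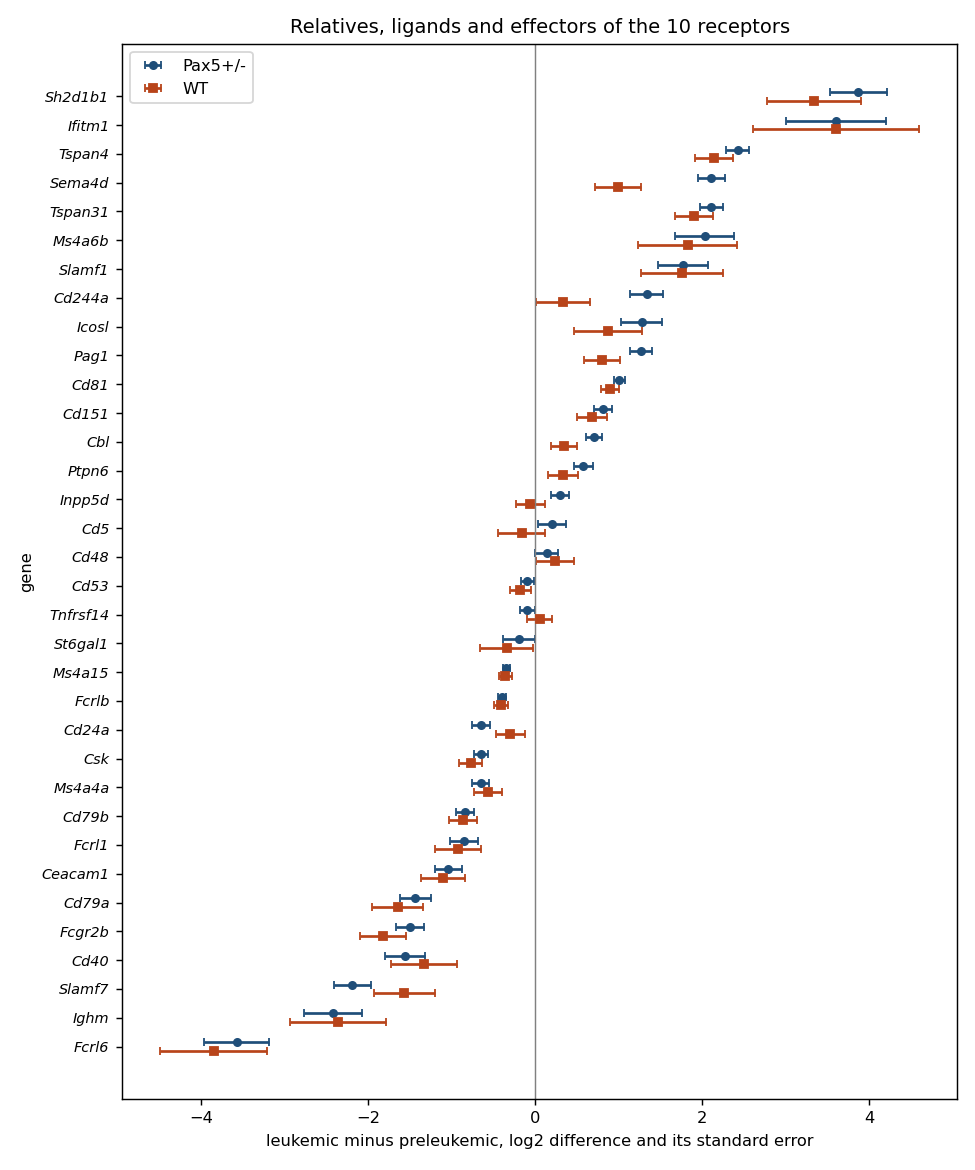
Leukemic minus preleukemic log2 difference with its standard error for relatives, ligands and effectors of the 10 genes, as circles for Pax5+/- and squares for WT mice. Fcrl6, Ighm and Slamf7 lie lowest in Pax5+/- mice, at -3.58, -2.42 and -2.19, and Sh2d1b1 highest, at 3.87.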

How the data were processed

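RNA was extracted with Trizol, fragmented and labelled with biotin, per the labels' protocols. The deposited values, 1 column per array, are probe set signals on the log2 scale from 3.65 to 14.2. The submitters' processing notes name Transcriptome Analysis Console, while background correction, summarization and normalization are not given in the sources used here. Nothing was renormalized. Of 28944 probe sets, 21789 carried 1 gene symbol, 1621 several and 5534 none. Where a symbol had more than 1 probe set, that of highest mean was used, and each of the 10 genes had 1. The filter kept genes above the 30th percentile of their array on at least 3 arrays and removed 4396 of 19938.

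Differences were estimated with limma 3.58.1 (R 4.3.3) in a single fit of the 4 groups, using lmFit, contrasts and eBayes with a trend. Tests were two-sided, p-values were adjusted by Benjamini-Hochberg across the 15542 genes, and the threshold was 0.05. Fold is 2 to the power of the log2 difference, and SEs are on the log2 scale. The fit was tested on simulated data. Genotype differences were also tested by exact permutation of the samples. The design text counts samples as mice, and precision is limited by how few arrays some groups held.

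The 10 genes and the gene lists were chosen with earlier results of these data known. Named genes were the 10, a fixed set of partners and ligands, up to 3 further genes of smallest p per list that passed in Pax5+/- leukemia, and the 5 most like the mean of the 10, besides markers of other cells. Lilrb4a and Pdcd1 were added as genes of higher mean in leukemia, and Dok3 as the effector of most negative stage difference. Alternatives changed the filter (none, or the 50th percentile), the variance prior (without trend, or robust), the array weights, the scaling (quantile or median centring), the probe sets and the groups in the fit. Others added sex as a covariate or the first letter of the source name as a random block, or left out samples. Figures were drawn with matplotlib 3.10.9.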

Additional observations from a re-analysis of the deposited data

Results flagged for a closer look

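In 3 of 20 groups of values tested, 1 gene in 1 group of 7 or 10 samples each, the highest sample lay far from the rest by Dixon's criterion, where chance gives about 1. Fcmr read 9.59 in Pax5+/- leukemia 7, against 6.64 in the next leukemia, a gap of 2.95. Btla read 8.24 in Pax5+/- leukemia 2, against 6.73 in the next, a gap of 1.51. Cd2 read 8.3 in the same leukemia, against 6.93 in the next, a gap of 1.37. Leukemia 2 also had the highest T cell list mean of its group, 7.639, and the highest mature B cell list mean, 8.359, and leukemia 7 had the highest mean of B lineage defining genes, 10.675. The part of these cells in the values was not tested.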

How the results depend on the processing

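The stage counts of the 10 genes follow from how the genes were chosen, also in the alternatives, and nothing is read from them. In Pax5+/- mice the number of the 10 genes lower in leukemia was 9 in all 36 alternatives. In WT mice it was 8 and ranged from 6 to 9, with the calls of Cd72, Cd37 and Btla changing, and 6 was reached without sample 14, 15 or 18. Between genotypes in leukemia and for the interaction it was 0 in all alternatives. Between genotypes before leukemia it was 0, and 1 (Slamf6) with only the groups compared and without samples 2, 6 and 7. With sex as a covariate the WT difference of Cd37 was -0.32 and did not pass, and that of Btla was -1.37 and passed. Each WT group held a single sex, so the sex effect in this fit came from the Pax5+/- samples. The fit therefore cannot separate sex from stage in WT mice.

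Signs turned only where the main difference did not pass. The stage difference of Cd22 was 0.099 in Pax5+/- mice with array weights, and ranged from -0.21 to 0.13 (Pax5+/-) and from -0.32 to 0.01333 (WT) with 1 sample left out. The genotype difference before leukemia then ranged from -0.36 to 0.1129 for Cd72 and from -0.27 to 0.005714 for Cd37. In leukemia it ranged from -0.38 to 0.001111 for Cd22, -0.78 to 0.269 for Cd72, -0.53 to 0.189 for Btla, -0.04556 to 0.42 for Fcmr and -1.44 to 0.243 for Cd2. The interaction ranged from -0.06076 to 0.32 for Cd22, -0.70 to 0.3428 for Cd72, -0.71 to 0.9792 for Cd2 and -0.49 to 0.4523 for Ms4a1. With sex as a covariate, the leukemic genotype difference was 0.03485 for Cd72 and -0.001898 for Cd37, and the interaction was 0.478 for Cd72.

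Without samples 15, 17 and 20 together, which leaves 1 WT leukemia that is assumed to vary like the other groups, the leukemic genotype difference was 0.174 for Cd72, 0.379 for Btla and 0.163 for Cd2. The interaction was then -0.03743 for Cd22, 0.5361 for Cd72, 0.114 for Btla, 0.019 for Fcrla, 1.191 for Cd2 and 0.4023 for Ms4a1. Without samples 2, 6 and 7, the leukemic genotype difference of Fcmr was -0.06952 and the interaction of Cd22 was -0.03381. The cause of these changes was not tested. No paired analysis was possible because sample numbers run through the series and no number is shared between groups. The source-name letter, fitted as a random block, had a correlation of -0.0441. The second probe set was not run, since each of the 10 genes has 1. Levels near the array median carry no detection call here, so the size of a difference that ends there is uncertain.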

Other observations

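The source names of the Pax5+/- samples begin with letters whose meaning is not stated. The letter L was carried by 1 leukemia, sample 10, and 3 preleukemic samples, and within it the leukemia minus the preleukemic mean was -6.1 for Cd72, -5.66 for Fcrla, -4.15 for Fcmr, -4.07 for Cd2 and -3.98 for Siglecg on the log2 scale. Smaller steps were seen for Ms4a1 (-2.20), Btla (-1.99), Slamf6 (-1.69) and Cd37 (-0.40), and Cd22 was 0.29 higher. With 1 leukemia these values have no test.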
